A study of Mus musculus with 16 samples.

Results

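This account follows 10 mouse genes that move zinc and manganese across membranes or hold zinc inside the cell: the exporters Slc30a10, Slc30a1, Slc30a2 and Slc30a4, the importers Slc39a4, Slc39a5, Slc39a8 and Slc39a14, and the metallothioneins Mt1 and Mt2. They are 10 of the 54123 genes counted in 16 RNA-seq libraries of colon organoids. The list was drawn up by function, and Slc30a10 was put at its head because its counts were among those that fell the most with Cdx2-sgRNA in both regions of the colon. Its difference between guides is therefore given as a description, without a test. Its tests between groups with Cdx2-sgRNA use the low counts behind that choice, so they are a description too. Reads were assigned to transcripts and summed per gene, and levels are given as counts, as CPM (counts scaled to a common library size, corrected for composition) or, between genes, as TPM, which also corrects for transcript length.

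The organoids were grown from the first 1 cm of the proximal colon or the last 1 cm of the descending (distal) colon of female mice aged 8 weeks that carried heterozygous Cre-inducible BrafV600E and a heterozygous tdTomato reporter. These alleles are shared by all groups used here, and the labels name no Cre treatment for any of them. Organoids received a lentivirus that encodes Cas9 together with either a Scramble-sgRNA, as control, or Cdx2-sgRNA, which cuts the gene of the intestinal homeobox factor Cdx2. Organoids with Cdx2-sgRNA came from single clones carrying frameshifts in Cdx2, and no such cloning step is described for the controls, so an effect of the guide and of clonal origin cannot be told apart. After 2 days in a medium with Wnt3a, EGF, Noggin and R-spondin-1 (WENR-plus), each culture spent 3 days either in the same medium or in one without these niche factors (WENR-minus). Region, guide and medium give 8 groups of 2 libraries, and the cultures came from 2 mice. With 2 libraries per group, the p-values measure the spread between these cultures only.

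Zinc and manganese are needed by many enzymes but harm cells in excess, so uptake, storage and export are balanced. Proteins of the Slc39 (ZIP) family bring metal ions into the cytosol, proteins of the Slc30 (ZnT) family take them out of it, into vesicles or across the plasma membrane, and metallothioneins are small cysteine-rich proteins that bind zinc and copper. In the intestine these transporters govern how much dietary zinc enters the body and how much zinc and manganese is given back to the lumen. The metal-responsive factor Mtf1 senses free zinc and binds metal response elements in the promoters of metallothionein genes and of Slc30a1.

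Promoter sequences are shown for the members whose RNA was nearly lost in some group and for the metallothionein pair, because the factor that was cut, Cdx2, and the zinc sensor Mtf1 each have a short known core motif that can be looked for there. RefSeq promoters (GRCm38.p6) matched 8 of the 10 members. Slc39a4 and Slc39a14 had no entry. Each line gives the 250 bases before the start site, 5′ to 3′ on the strand of the gene. Capitals mark the metal response element core, searched on both strands as TGCACNC or TGCGCNC. The Cdx core, searched as CATAAA on both strands, would also be in capitals.
Slc30a10, chr1:185454598-185454847, plus strand: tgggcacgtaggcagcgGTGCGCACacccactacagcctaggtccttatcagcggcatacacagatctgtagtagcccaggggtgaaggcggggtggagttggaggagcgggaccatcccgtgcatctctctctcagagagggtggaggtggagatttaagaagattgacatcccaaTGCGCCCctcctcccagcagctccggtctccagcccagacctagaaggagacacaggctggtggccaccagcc
Slc39a5, chr10:128401225-128401474, minus strand: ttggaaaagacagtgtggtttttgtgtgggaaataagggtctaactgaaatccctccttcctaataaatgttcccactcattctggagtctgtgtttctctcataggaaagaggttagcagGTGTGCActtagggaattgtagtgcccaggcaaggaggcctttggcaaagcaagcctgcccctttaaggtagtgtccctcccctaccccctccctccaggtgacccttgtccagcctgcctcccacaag
Mt1, chr8:94178839-94179088, plus strand: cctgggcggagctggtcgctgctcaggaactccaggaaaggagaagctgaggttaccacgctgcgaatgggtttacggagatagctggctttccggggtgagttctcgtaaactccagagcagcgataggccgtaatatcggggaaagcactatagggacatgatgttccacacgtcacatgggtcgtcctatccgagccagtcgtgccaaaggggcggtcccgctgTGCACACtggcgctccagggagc
Mt2, chr8:94172368-94172617, plus strand: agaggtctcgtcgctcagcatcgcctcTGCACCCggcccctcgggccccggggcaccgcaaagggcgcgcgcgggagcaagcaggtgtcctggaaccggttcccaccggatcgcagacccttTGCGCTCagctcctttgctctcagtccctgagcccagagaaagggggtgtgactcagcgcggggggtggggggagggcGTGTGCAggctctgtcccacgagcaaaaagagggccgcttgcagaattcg

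The Slc30a10 stretch held 3 matches to the metal response core, of which the pair 233 and 232 bases before the start overlap, and the Mt2 stretch also held 3. Mt1 held 1 match, 23 bases before its start, and Slc39a5 held 1 at its first start site and 0 at its second. Of the members not printed, Slc30a4 and Slc30a2 held 2 each and Slc30a1 held 1. Slc39a8 held 0 at its first start site and 1 at its second. Among all 32851 promoters of this length, 21.4% held at least 1 metal response core and 1.26% held 3 or more. Each window depends on the RefSeq start site used, and that of Mt2 ends at 94172617, before the annotated gene start at 94172664. Bases beyond the windows were not searched, so a low count does not show that a gene has few metal response elements. CATAAA was in none of the members' windows and in 10.8% of all windows, which says only that these letters are not there.

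In the annotation (GRCm38, GENCODE) the members are all protein-coding genes. Slc30a10 (chr1:185454848-185468762, plus strand) and Slc30a1 (chr1:191906767-191913247, plus) lie on the same chromosome. Slc30a2 is at chr4:134343181-134354484 (plus) and Slc30a4 at chr2:122681233-122702663 (minus). The importers are Slc39a4 (chr15:76612383-76617384, minus), Slc39a5 (chr10:128395931-128401229, minus), Slc39a8 (chr3:135825279-135888572, plus) and Slc39a14 (chr14:70303469-70351425, minus). Mt2 (chr8:94172664-94173568, plus) and Mt1 (chr8:94179082-94180327, plus) are neighbours on chromosome 8. Slc39a5 overlaps the protein-coding gene Ankrd52 on the opposite strand. The library kit keeps strand.

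Total counts ran from 12465194 to 18922143 per library, with a median of 16836530. Cdx2 itself had 151 and 203 CPM in proximal Scramble-sgRNA organoids in WENR-minus against 71.0 and 73.9 with Cdx2-sgRNA, while the WENR-plus levels were 127 and 142 against 29.9 and 33.3. In distal organoids the ranges of Cdx2 RNA with and without the guide overlapped in WENR-minus, at 86.1 and 126 CPM with Cdx2-sgRNA and 110 and 112 with Scramble-sgRNA, and stood at 50.2 and 62.3 against 67.9 and 76.8 in WENR-plus. A frameshift can leave the RNA in place, so its level does not check the label of the distal clones. Epithelial markers (6 genes) were high throughout but moved with the medium, at a sum of 12000 to 17600 CPM in the WENR-minus libraries and 3920 to 5320 CPM in the WENR-plus libraries. Fibroblast markers summed to at most 1.12 CPM, with Dcn and Lum at 0 in every library. Immune markers summed to 1.51 to 26.4 CPM, with Cd3e and Cd79a at no more than 1 count. Endothelial markers summed to between 0.965 and 11.6 CPM, mostly Vwf.

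Measured per length in the Scramble-sgRNA organoids, the metallothioneins stood highest, with a median over 8 libraries of 132 TPM for Mt1 (range 92.2 to 307) and 85.7 TPM for Mt2 (51.8 to 332). Next came the zinc importer gene Slc39a4 at a median of 66.8 TPM (30.5 to 135), the vesicle exporter gene Slc30a4 at 38.2 (21.4 to 65.4) and Slc39a8 at 34.9 (5.76 to 76.6). Slc39a5 had a median of 22.2 TPM (4.61 to 39.8), Slc39a14 18.1 (10.4 to 24), Slc30a10 10.9 (0.857 to 33.7) and Slc30a1 10.7 (5.38 to 19). Each member's range overlapped that of the next in this order. Slc30a2, which encodes a zinc exporter of secretory vesicles, had 0 to 5 counts in each of the 16 libraries, was left out by the filter on low counts, and is given no fold. The other 9 members were tested.

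**Figure D1:**
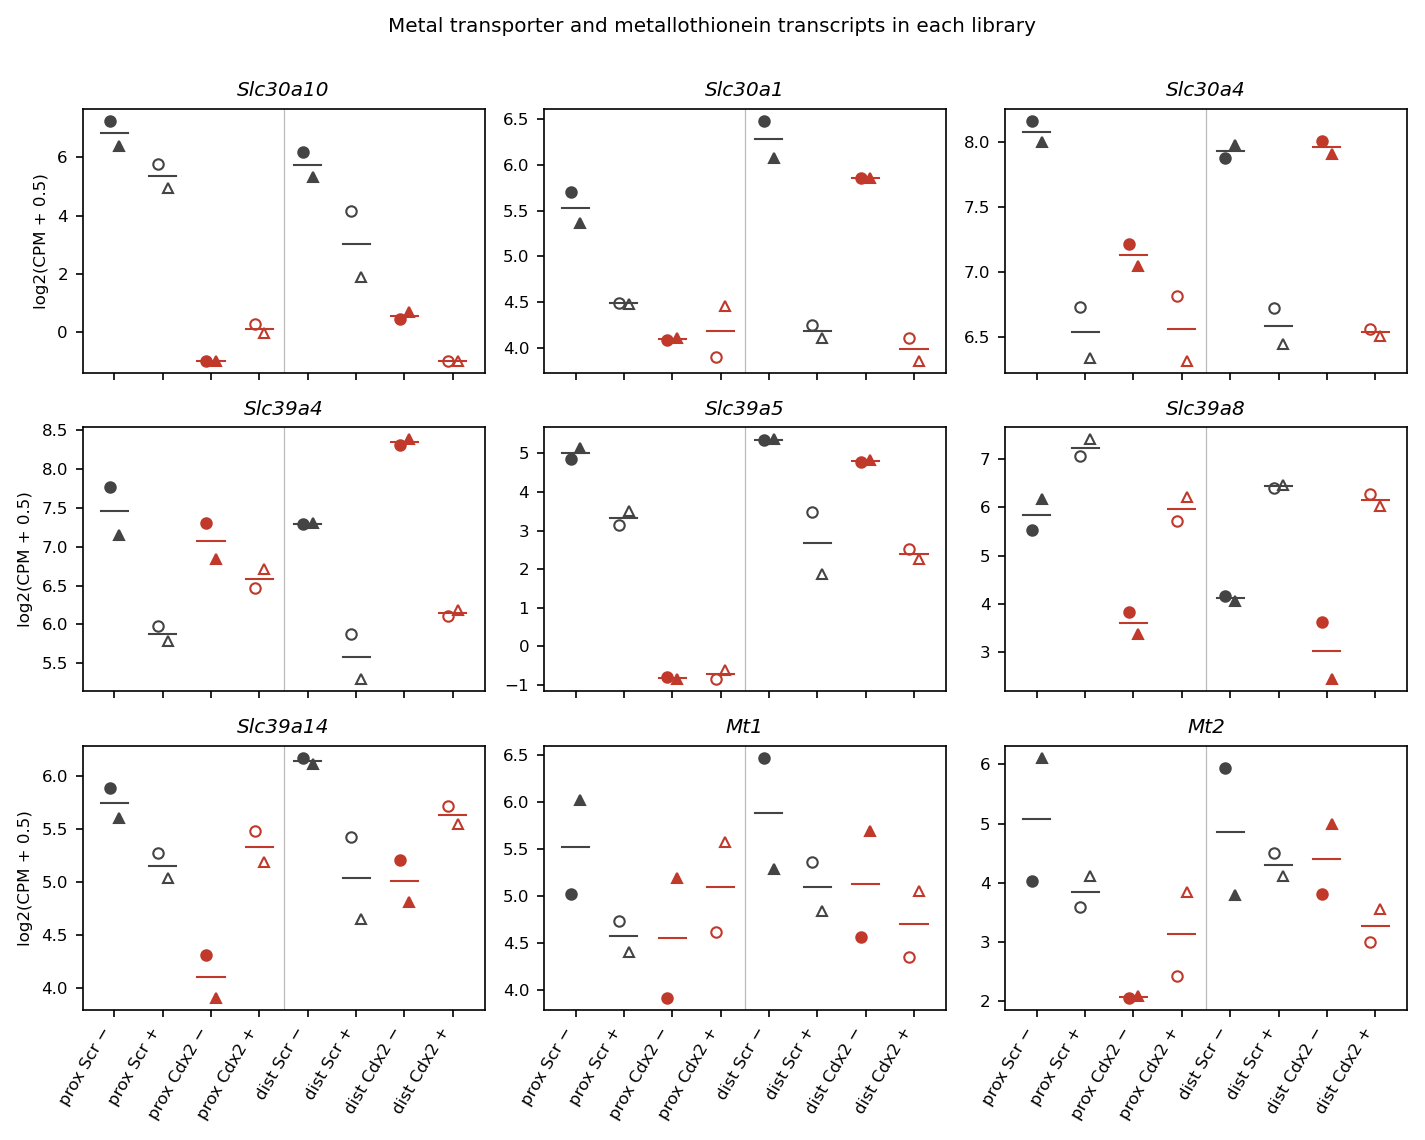
Level of 9 members in each of the 16 libraries, as log2(CPM + 0.5), by group. Circles are replicate 1 and triangles replicate 2, bars are group means, grey is Scramble-sgRNA, red Cdx2-sgRNA, filled symbols WENR-minus (−) and open symbols WENR-plus (+). Slc30a10 is at the bottom of the scale in all Cdx2-sgRNA groups, Slc39a5 in the proximal ones, and Slc39a8 alone is lower in WENR-minus than in WENR-plus in all 4 pairs of groups.

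The first comparison asked which metal genes differ when Cdx2 is cut. Slc30a10, the manganese exporter, was described first because it was chosen on this difference. In proximal Scramble-sgRNA organoids its WENR-minus libraries held 2465 and 1608 counts and its WENR-plus libraries 1123 and 518. With Cdx2-sgRNA it had 0 counts in both WENR-minus libraries and 12 and 9 in the WENR-plus ones. In distal WENR-minus the control counts were 934 and 555 against 10 and 13 with Cdx2-sgRNA, and in distal WENR-plus they were 345 and 59 against 0 and 0. The guides did not overlap in any of the 4 pairs of groups. With 3 counts per library taken as the floor, the mean control level was at least 620-fold higher in proximal WENR-minus and at least 61.8-fold higher in distal WENR-plus. The latter is a mean of unlike control libraries, at 17.3 and 3.17 CPM. The other ratios were 74.7 (95% exact counting interval 48.7 to 121) in proximal WENR-plus and 57.1 (37.9 to 90.4) in distal WENR-minus. Intervals and floors cover counting error only.

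Beside these, 8 members were tested for the guide in 4 settings, where a call needed an adjusted p under 0.05 and a log2 fold change beyond 1 in either direction. In proximal organoids in WENR-minus 5 of the 8 were called, all lower with Cdx2-sgRNA, where 21.2% of all genes tested were called and 12.1% were called lower. In proximal WENR-plus 2 of 8 were called, both lower (15.9% of all genes were called and 8.94% were called lower). In distal WENR-minus 2 of 8 were called, 1 lower and 1 higher (of all genes 5.25% were called, 3% lower and 2.24% higher). In distal WENR-plus none of the 8 was called (0.262% of all genes) by edgeR or by DESeq2, and of the 8 only Slc39a4 had an unadjusted p under 0.05 (0.0468). Without a filter on low counts edgeR called Mt2 there (-1.06, adjusted p = 0.0041). The members' median log2 difference was -1.6, -0.12, -0.65 and -0.24 in these settings, against medians over all tested genes between -0.05 and 0.

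Slc39a5 encodes an importer that brings zinc in from the blood side of enterocytes. In proximal Scramble-sgRNA organoids its WENR-minus libraries held 461 and 668 counts and its WENR-plus libraries 175 and 185. With Cdx2-sgRNA there was 1 count in each WENR-minus library, and 1 and 3 in those of WENR-plus. The guides stood wholly apart, by a ratio of 517 (95% exact counting interval 143 to 4280, adjusted p = 6.08e-06) in WENR-minus and of 86 (33.3 to 317, adjusted p = 6.34e-05) in WENR-plus. In distal WENR-minus the control counts of Slc39a5 were 522 and 568 against 316 and 331 with Cdx2-sgRNA, and in distal WENR-plus they were 212 and 59 against 92 and 81. The distal log2 differences were -0.57 ± 0.40 (SE, adjusted p = 0.393) and -0.53 ± 0.41 (adjusted p = 0.962), and the latter was 0.59 without Scramble-sgRNA replicate 1. The difference between the proximal and the distal effect of the guide passed the test in WENR-minus (adjusted p = 8.86e-05) and in WENR-plus (adjusted p = 0.0015), where 14.3% and 4.98% of all genes were called for these differences, 9.08% and 3.76% with the more negative value in proximal organoids. In WENR-minus 3 of the 8 members were called and in WENR-plus 1, all on that side. Leaving out any 1 library did not end either call.

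Slc39a8 encodes an importer of zinc and manganese. In proximal organoids it had 45.4 and 71.4 CPM with Scramble-sgRNA and 13.7 and 9.94 CPM with Cdx2-sgRNA in WENR-minus, a log2 difference of -2.31 ± 0.35 (adjusted p = 0.000635). In WENR-plus the values were 133 and 169 CPM against 51.8 and 73.3, a log2 difference of -1.27 ± 0.34 (adjusted p = 0.0184). The WENR-plus call was lost without Cdx2-sgRNA replicate 1 (-1.05, adjusted p = 0.108) and without Scramble-sgRNA replicate 2 (-1.06, adjusted p = 0.113). In distal organoids it had 17.4 and 16.3 CPM against 11.8 and 4.93 in WENR-minus, at -1.01 ± 0.36 (adjusted p = 0.1). This became a call only without the distal Cdx2-sgRNA replicate 1 (-1.77, adjusted p = 0.0354). In distal WENR-plus the difference was -0.28 ± 0.33 (adjusted p = 0.974). The lower level with the guide was thus called in proximal organoids in both media, and the difference between the regions was not called in either (adjusted p = 0.0949 and 0.254).

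Slc39a14 encodes an importer of zinc, manganese and iron. In proximal WENR-minus it had 58.6 and 48.2 CPM with Scramble-sgRNA and 19.3 and 14.5 with Cdx2-sgRNA, a log2 difference of -1.66 ± 0.26 (adjusted p = 0.000673). In distal WENR-minus the levels were 71.6 and 68.7 CPM against 36.5 and 27.6, at -1.13 ± 0.25 (adjusted p = 0.0205). The distal call was lost when any 1 of its 4 libraries was left out, at adjusted p = 0.0754 and 0.0997 without Scramble-sgRNA replicate 1 and 2 and 0.0517 and 0.146 without Cdx2-sgRNA replicate 1 and 2. In WENR-plus no difference was called, at 0.18 ± 0.25 (adjusted p = 0.635) for the proximal and 0.55 ± 0.25 (adjusted p = 0.784) for the distal pair of groups.

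Slc39a4, the main importer of dietary zinc at the apical face of the enterocyte, was the only member called higher with Cdx2-sgRNA. In distal WENR-minus it had 156 and 157 CPM with Scramble-sgRNA and 316 and 333 CPM with Cdx2-sgRNA, a log2 difference of 1.05 ± 0.24 (adjusted p = 0.0216). The size hardly moved when 1 of these 4 libraries was left out (1.01 to 1.09), but the adjusted p then rose to 0.0957 and 0.133 without Scramble-sgRNA replicate 1 and 2 and to 0.0729 and 0.112 without Cdx2-sgRNA replicate 1 and 2. In distal WENR-plus the difference was 0.53 ± 0.24 (adjusted p = 0.76). In proximal WENR-plus it was 0.71 ± 0.24 (adjusted p = 0.0491), short of the fold threshold. In proximal WENR-minus the guides overlapped, at 142 and 218 against 114 and 157 CPM (-0.41 ± 0.24, adjusted p = 0.215). In WENR-minus the effect of the guide on the log2 scale was more negative in proximal than in distal organoids (-1.46 ± 0.34, adjusted p = 0.0134). This call was lost without proximal Scramble-sgRNA replicate 1 (adjusted p = 0.0542), proximal Cdx2-sgRNA replicate 2 (0.0553) or distal Scramble-sgRNA replicate 2 (0.0526). In WENR-plus that difference was 0.18 ± 0.34 (adjusted p = 0.81).

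Slc30a1, the zinc exporter of the plasma membrane and a target of Mtf1, had 51.7 and 40.6 CPM in proximal WENR-minus with Scramble-sgRNA and 16.5 and 16.7 with Cdx2-sgRNA, a log2 difference of -1.48 ± 0.21 (adjusted p = 0.000357). The other log2 differences were -0.28 ± 0.20 (adjusted p = 0.342) in proximal WENR-plus, -0.44 ± 0.20 (adjusted p = 0.192) in distal WENR-minus and -0.20 ± 0.21 (adjusted p = 0.969) in distal WENR-plus. In WENR-minus the proximal effect was more negative than the distal one by -1.03 ± 0.29 (adjusted p = 0.0311), a call that was lost, at adjusted p up to 0.136, without any 1 of its 8 libraries other than Scramble-sgRNA replicate 2 in proximal and replicate 1 in distal organoids. It was also lost with length-scaled counts (-1.08, adjusted p = 0.146) and with only its own libraries in the fit (-0.99, adjusted p = 0.0577). In WENR-plus the same difference was -0.08 ± 0.29 (adjusted p = 0.913). Slc30a4, which loads zinc into vesicles, was lower with Cdx2-sgRNA in proximal WENR-minus, at 148 and 132 against 286 and 255 CPM, a log2 difference of -0.95 ± 0.19 that passed the test (adjusted p = 0.00282) but not the fold threshold. In WENR-minus its proximal effect was more negative than the distal one by -0.99 ± 0.26 (adjusted p = 0.0251), also short of the fold threshold.

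Of the metallothioneins, Mt2 was called in proximal WENR-minus, where it had 15.9 and 68.7 CPM with Scramble-sgRNA and 3.64 and 3.75 with Cdx2-sgRNA (-3.51 ± 0.86, adjusted p = 0.0097). The control replicates of Mt2 were more than a factor of 4 apart, and the call was lost without Scramble-sgRNA replicate 2 (-2.11, adjusted p = 0.0885, against -4.18 without replicate 1), without Cdx2-sgRNA replicate 1 (adjusted p = 0.0543) and without Cdx2-sgRNA replicate 2 (adjusted p = 0.0657). Its other log2 differences were -0.59 ± 0.78 (adjusted p = 0.619) in proximal WENR-plus, -0.73 ± 0.76 (adjusted p = 0.594, but 0.74 without distal Scramble-sgRNA replicate 1) in distal WENR-minus and -1.06 ± 0.78 (adjusted p = 0.957) in distal WENR-plus. Mt1 was not called for the guide in any setting, with adjusted p from 0.243 to 0.975 and overlapping guides throughout. In 7 of the 8 groups the replicate with more Mt1 also had more Mt2.

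**Figure D2:**
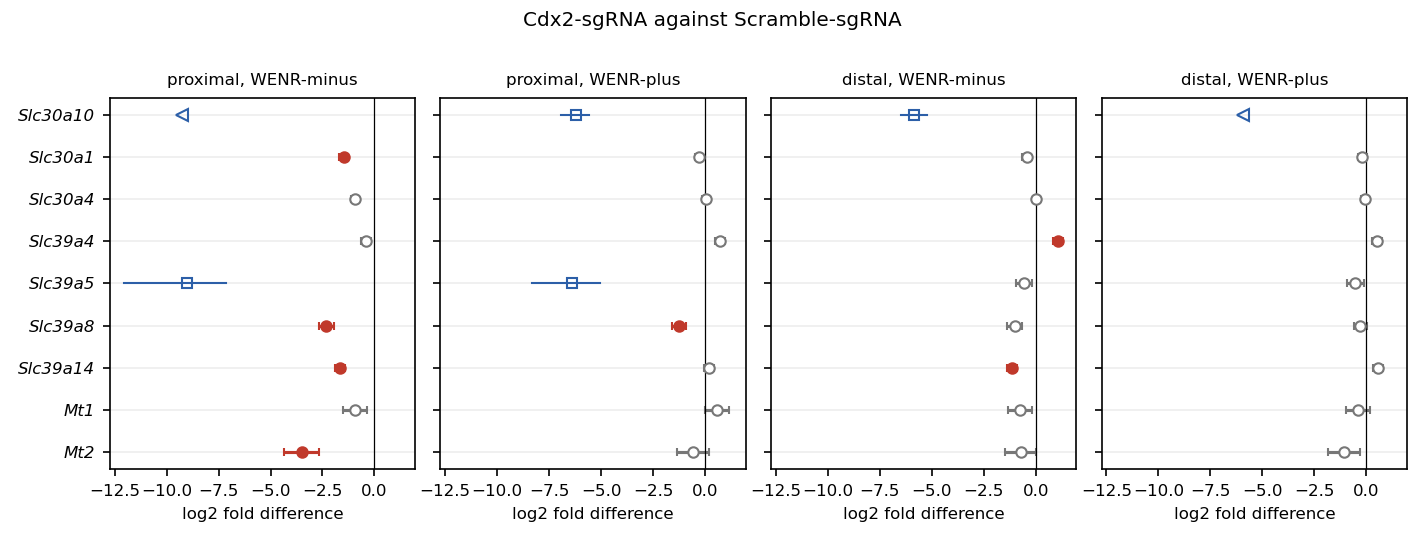
Log2 difference of Cdx2-sgRNA against Scramble-sgRNA for 9 members in each region and medium. Circles are fitted values with their standard errors, filled red where called. Blue squares are ratios of counts with 95% exact counting intervals and blue triangles are bounds, used where the Cdx2-sgRNA libraries had few or no counts and for Slc30a10, which was chosen on this difference. Slc30a10 lies far to the left in all 4 panels and Slc39a5 only in the proximal ones.

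Markers of cell types moved with some of these groups. Goblet markers (6 genes) summed to between 33.6 and 54.6 CPM in the proximal Cdx2-sgRNA libraries, against 606 to 6960 in the proximal controls and 616 to 15300 in the distal libraries of either guide. Colonocyte markers (8 genes) summed to 524 to 1590 CPM in proximal Cdx2-sgRNA organoids in WENR-minus, against 7330 to 17200 in the other WENR-minus libraries and 139 to 753 in WENR-plus. Paneth markers summed to 717 to 1030 CPM in proximal Cdx2-sgRNA organoids in WENR-plus, led by Mmp7, and to at most 189 elsewhere, with the 3 Defa genes at no more than 5 counts. Immune markers (6 genes) summed to 16 to 26.4 CPM in proximal Cdx2-sgRNA organoids in WENR-minus, where 5 members were called lower, against 2.55 to 5.14 in their controls. Stem cell markers (6 genes) moved with the medium, at 92.2 to 193 CPM in WENR-minus against 326 to 546 in WENR-plus. The part of these markers in the results on the metal genes was not tested. In such bulk samples, fewer cells of a type and less RNA per cell cannot be told apart.

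The second comparison asked how the members respond when the niche factors are withdrawn, and here Slc30a10 was tested as well. Of the 9 members, 5 were called in proximal Scramble-sgRNA organoids (17% of all genes), 7 in distal Scramble-sgRNA organoids (26.4%), 6 in distal Cdx2-sgRNA organoids (33.1%) and 2 in proximal Cdx2-sgRNA organoids (6.4%). The 6 include Slc30a10, whose counts with Cdx2-sgRNA had entered its choice. In the first 3 settings all but 1 of the called members were higher in WENR-minus, namely 4, 6 and 5 of them, where 8.73%, 12.2% and 14.9% of all genes were called higher. The exception each time was Slc39a8, beside 8.24%, 14.2% and 18.1% of all genes called lower. In proximal Cdx2-sgRNA organoids both called members were lower, as were 2.98% of all genes. The median log2 difference of the members was 1.5, 1.3, 1.4 and, in proximal Cdx2-sgRNA organoids, -0.87 over the 8 members given a value there, with Slc30a10 at its bound, against medians between -0.11 and -0.03 for all genes. The summed stem cell markers were lower, and the epithelial and colonocyte markers higher, in WENR-minus than in WENR-plus in each of the 4 settings, without overlap. Goblet markers were also higher in WENR-minus, at 5890 to 6960 against 606 to 1010 CPM and 5610 to 10700 against 616 to 1220 CPM in proximal and distal controls, and at 51.4 to 54.6 against 33.6 to 39.1 CPM and 5770 to 15300 against 642 to 3310 CPM with Cdx2-sgRNA. The part of these markers in the differences was not tested.

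Among the exporters, Slc30a4 went from 106 and 80.5 CPM to 286 and 255 on withdrawal in proximal control organoids, a log2 difference of 1.54 ± 0.19 (adjusted p = 0.000378). It also rose in distal organoids, by 1.34 ± 0.19 (adjusted p = 0.000287) with Scramble-sgRNA and 1.43 ± 0.19 (adjusted p = 0.000103) with Cdx2-sgRNA. In proximal Cdx2-sgRNA organoids the difference was 0.55 ± 0.19 (adjusted p = 0.073). In proximal controls Slc30a1 rose from 22.0 and 21.9 CPM in WENR-plus to 51.7 and 40.6 on withdrawal, 1.07 ± 0.20 on the log2 scale (adjusted p = 0.00301). That value fell short of the fold threshold without WENR-minus replicate 1 (0.91) and with at least 10 counts in every library (0.99), and was 0.82 (adjusted p = 0.095) with length-scaled counts. In distal organoids Slc30a1 rose from 18.6 and 16.8 CPM to 88.8 and 67.1 with Scramble-sgRNA (2.14 ± 0.21, adjusted p = 4.95e-05) and from 16.8 and 14 to 57.4 and 57.4 with Cdx2-sgRNA (1.90 ± 0.21, adjusted p = 3.54e-05). In proximal Cdx2-sgRNA organoids the media overlapped, at 16.5 and 16.7 against 14.5 and 21.5 CPM (-0.12 ± 0.21, adjusted p = 0.774).

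Slc30a10 rose on withdrawal in distal Scramble-sgRNA organoids, from 17.3 and 3.17 to 71.9 and 39.8 CPM (2.44 ± 0.67, adjusted p = 0.0162). That call was lost without WENR-minus replicate 1 (1.96, adjusted p = 0.0957), and the value was 4.18 (adjusted p = 0.00161) without WENR-plus replicate 1 and 1.78 without WENR-plus replicate 2. In proximal Scramble-sgRNA organoids it had 53.7 and 30.7 CPM in WENR-plus and 153 and 83.8 in WENR-minus, without overlap, at 1.49 ± 0.64 (adjusted p = 0.112). Replicate 1 was the higher one in both media. With the replicate number as 1 block shared by all groups the same difference was called (1.48, adjusted p = 0.0233). A block for each culture, which pairs the media of that culture, gave adjusted p = 0.00511. The difference was also called without a filter on low counts (1.52, adjusted p = 5.01e-09) and with only its own libraries in the fit (1.48, adjusted p = 0.0421). The few counts left with Cdx2-sgRNA lay on opposite sides. Slc30a10 was chosen on the low level of these counts, so they are a description. In distal Cdx2-sgRNA organoids the 10 and 13 counts in WENR-minus against 0 and 0 in WENR-plus gave a level at least 5.85-fold higher. That call (adjusted p = 0.0328) was lost without any 1 of the 4 libraries. In proximal Cdx2-sgRNA organoids the 12 and 9 counts were in WENR-plus and the level in WENR-minus was at least 3.07-fold lower (adjusted p = 0.144, or 0.0452 with the replicate block and 0.0437 with a block for each culture).

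Among the importers, Slc39a4 and Slc39a5 rose together in the control organoids. Slc39a4 went from 62.9 and 54.5 to 218 and 142 CPM in proximal (1.61 ± 0.24, adjusted p = 0.000973) and from 58.4 and 38.7 to 156 and 157 CPM in distal Scramble-sgRNA organoids (1.69 ± 0.24, adjusted p = 0.000339). With Cdx2-sgRNA the distal difference was 2.21 ± 0.25 (adjusted p = 3.78e-05) and the proximal one 0.49 ± 0.24 (adjusted p = 0.2). Slc39a5 went from 8.36 and 10.9 to 28.6 and 34.8 CPM in proximal controls (1.72 ± 0.41, adjusted p = 0.0094), a call lost without WENR-plus replicate 1 (1.58, adjusted p = 0.0674). In distal organoids it rose from 10.6 and 3.17 to 40.2 and 40.7 CPM with Scramble-sgRNA (2.55 ± 0.42, adjusted p = 0.000711), a value that was 3.72 without WENR-plus replicate 1 and 2.02 without replicate 2. With Cdx2-sgRNA it rose from 5.27 and 4.28 to 26.7 and 27.7 CPM (2.51 ± 0.43, adjusted p = 0.000543). Both media were at the floor in proximal Cdx2-sgRNA organoids, and no fold is given there.

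Slc39a8 went the other way in all 4 settings. Its levels in WENR-plus and WENR-minus were 133 and 169 against 45.4 and 71.4 CPM in proximal controls (-1.37 ± 0.34, adjusted p = 0.011). That call was lost without WENR-minus replicate 1 (adjusted p = 0.11) and without WENR-plus replicate 2 (adjusted p = 0.0768). In proximal Cdx2-sgRNA organoids the fall was from 51.8 and 73.3 to 13.7 and 9.94 CPM (-2.41 ± 0.36, adjusted p = 0.00282), a call lost with only these 4 libraries in the fit (adjusted p = 0.122). In distal organoids it was from 83.9 and 87.8 to 17.4 and 16.3 CPM with Scramble-sgRNA (-2.35 ± 0.35, adjusted p = 0.000411) and from 77.2 and 64.7 to 11.8 and 4.93 CPM with Cdx2-sgRNA (-3.09 ± 0.37, adjusted p = 5.77e-05, or -3.84 without WENR-minus replicate 1). No medium overlapped the other in any of these settings.

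For Slc39a14 the called differences had opposite signs with the 2 guides. With Scramble-sgRNA it went from 42.5 and 24.7 to 71.6 and 68.7 CPM on withdrawal in distal organoids (1.06 ± 0.25, adjusted p = 0.00579), a value under the fold threshold without WENR-plus replicate 2 (0.82) and no longer above it with at least 10 counts in every library (1.00). The proximal control difference was 0.60 ± 0.25 (adjusted p = 0.0955). With Cdx2-sgRNA it went from 44.1 and 36.0 to 19.3 and 14.5 CPM in proximal organoids (-1.25 ± 0.26, adjusted p = 0.0107), lost without WENR-minus replicate 2 (-1.05, adjusted p = 0.0685) and with only its own libraries in the fit (-1.24, adjusted p = 0.125), and the distal difference was -0.62 ± 0.25 (adjusted p = 0.0641). The effect of withdrawal differed between guides in proximal organoids by -1.84 ± 0.36 (adjusted p = 0.0241), where 3.6% of all genes were called and 1.93% with the more negative value for Cdx2-sgRNA. This call was lost, at adjusted p from 0.0545 to 0.0918, without any 1 of its 8 libraries other than the WENR-minus libraries Scramble-sgRNA replicate 2 and Cdx2-sgRNA replicate 1 and the WENR-plus library Cdx2-sgRNA replicate 2, and also with only these libraries in the fit (adjusted p = 0.0599). In distal organoids the difference was nearly as large, at -1.68 ± 0.36 (adjusted p = 0.201). It was called with the replicate block (-1.73, adjusted p = 0.0499, or 0.0314 with a block for each culture), by DESeq2 (-1.68, adjusted p = 0.00357) and without a filter on low counts (-1.66, adjusted p = 5.84e-05). In that distal comparison edgeR called none of the 15289 genes, with 1457 at an unadjusted p under 0.05 and 120 called by DESeq2, Slc39a14 among them. For Slc30a1 the effect of withdrawal also differed between guides in proximal organoids (-1.19 ± 0.29, adjusted p = 0.0437), a call lost, at adjusted p from 0.08 to 0.158, without any 1 of its 8 libraries other than Scramble-sgRNA replicate 2 in WENR-minus and Cdx2-sgRNA replicate 1 in WENR-plus. It was also lost with length-scaled counts (adjusted p = 0.179) and with only these libraries in the fit (adjusted p = 0.123). The distal difference for Slc30a1 was -0.24 ± 0.29 (adjusted p = 0.865). With a block for each culture 3 further members were called for this difference in proximal organoids, namely Slc39a4 (-1.11, adjusted p = 0.0251, against 0.0818 without the block), Mt1 (-1.5, adjusted p = 0.0336 against 0.309) and Mt2 (-2.53, adjusted p = 0.0427 against 0.162). That fit called 10.4% of all genes in this comparison, 5.18% with the more negative value for Cdx2-sgRNA, against 3.6% and 1.93% without the block.

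Neither metallothionein was called for the medium. Mt1 had 26.2 and 20.7 CPM in WENR-plus against 32.0 and 64.4 in WENR-minus in proximal controls, which did not overlap (adjusted p = 0.2), and the media overlapped in the other 3 settings. Mt2 ranged from 15.9 to 68.7 CPM between replicates of that same WENR-minus group, and its adjusted p for the medium was between 0.15 and 0.363 over the 4 settings.

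**Figure D3:**
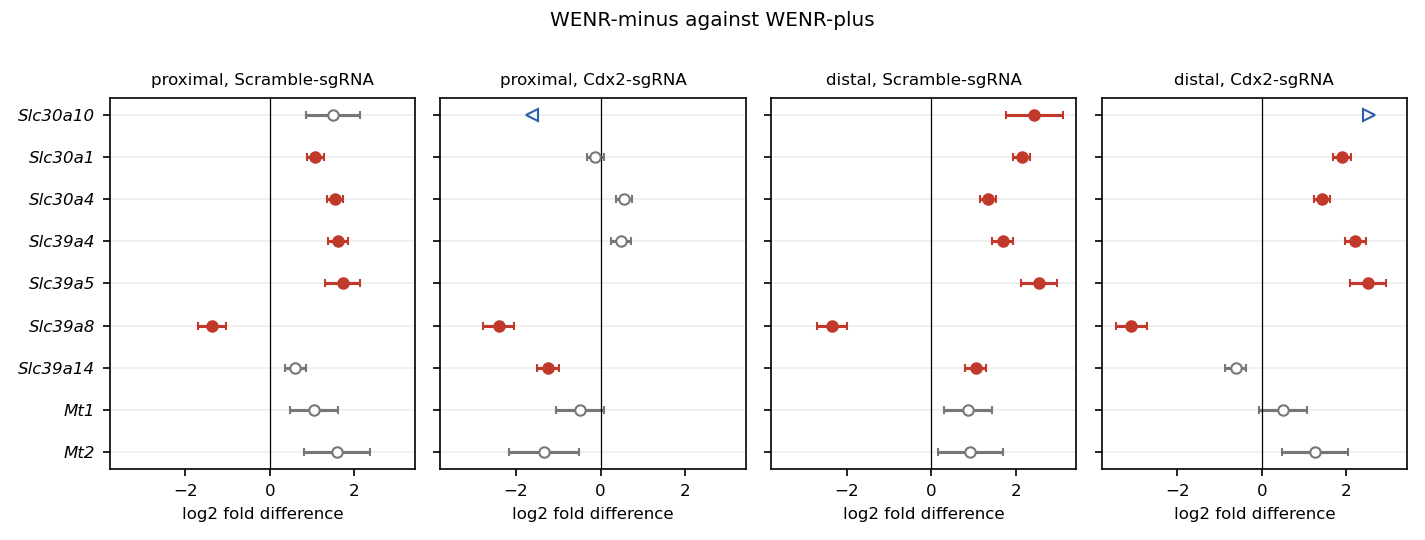
Log2 difference of WENR-minus against WENR-plus for 9 members, by region and guide. Circles are fitted values with standard errors, filled red where called, and blue triangles are bounds for Slc30a10 where 1 medium had 0 counts. Slc39a8 is to the left of 0 in all 4 panels, and Slc39a5 has no point in proximal Cdx2-sgRNA organoids, where both media were at the floor.

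The third comparison set proximal against distal organoids. With Scramble-sgRNA, 1 of 9 members was called in WENR-minus, as higher in proximal organoids (6.08% of all genes were called, 2.88% as higher), and none in WENR-plus (1.75%), where Slc30a10 and Slc39a8 had unadjusted p of 0.0123 and 0.0309 and DESeq2 called 1, Slc30a10 (adjusted p = 0.0422). Slc39a8 was higher in proximal than in distal organoids in WENR-minus, at 45.4 and 71.4 against 17.4 and 16.3 CPM (1.80 ± 0.35, adjusted p = 0.00955). That call was lost without distal replicate 1 (adjusted p = 0.0601), distal replicate 2 (0.0788) or proximal replicate 2 (0.0816). In WENR-plus its difference was 0.82 ± 0.33 (adjusted p = 0.287). Whether the difference between regions depended on the medium was tested in the controls, and edgeR called none of the 9 members (0.0719% of all genes), with Slc30a1 at -1.07 ± 0.29 and an unadjusted p of 0.00327. DESeq2 called 1 member, Slc30a1 (-1.12, adjusted p = 0.0383), and 1.04% of all genes. Slc30a10 was higher in proximal libraries without overlap in both media, at 1.08 ± 0.63 (adjusted p = 0.313) and 2.04 ± 0.66 (adjusted p = 0.187, or 0.0298 with the replicate block). That block fits 1 shift shared by both regions, a pairing that the replicates did not show. Without a filter on low counts both Slc30a10 differences were called (adjusted p = 0.000164 and 2.69e-14). Over 11 alternatives the WENR-plus difference ran from 1.32 to 3.72, the latter without distal replicate 1, and was called in 4. The other members called with Cdx2-sgRNA had these values in the controls. Slc30a1 was at -0.76 ± 0.20 (adjusted p = 0.0377) and 0.31 ± 0.20 (adjusted p = 0.554) in WENR-minus and WENR-plus. Slc39a4 was at 0.20 ± 0.24 (adjusted p = 0.644) and 0.27 ± 0.24 (adjusted p = 0.691), and Slc39a5 at -0.35 ± 0.39 (adjusted p = 0.624) and 0.48 ± 0.41 (adjusted p = 0.679), where the WENR-plus value became a call without distal replicate 1 (1.59, adjusted p = 0.0399). Mt2 was at 0.19 ± 0.75 (adjusted p = 0.913) and -0.46 ± 0.76 (adjusted p = 0.863).

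With Cdx2-sgRNA, 5 of 9 members, Slc30a10 among them, were called lower in proximal organoids in WENR-minus, where 34.6% of all genes were called and 16.5% were lower, and 1 of 9 in WENR-plus (17% called, 9.57% lower). Slc39a5 had 1 and 1 counts in proximal against 316 and 331 in distal organoids in WENR-minus, a ratio of 441 (121 to 3650, adjusted p = 4.46e-06), and the ratio was 43 (16.5 to 160, adjusted p = 0.000217) in WENR-plus. Slc30a1 was lower by -1.79 ± 0.21 (adjusted p = 5.73e-05) in WENR-minus, and stood at 0.23 ± 0.21 (adjusted p = 0.423) in WENR-plus. Slc39a4 had 157 and 114 against 316 and 333 CPM in WENR-minus (-1.26 ± 0.24, adjusted p = 0.00132) and a difference of 0.45 ± 0.24 (adjusted p = 0.17) in WENR-plus. Its mean TPM in WENR-minus, which lacks the composition factor of CPM, was 112 against 159. Mt2 had 3.64 and 3.75 against 13.5 and 31.2 CPM in WENR-minus (-2.59 ± 0.84, adjusted p = 0.0237), lost without proximal replicate 1 (adjusted p = 0.0924), proximal replicate 2 (0.0987) or distal replicate 2 (-1.90, 0.138), and stood at 0.01 ± 0.78 (adjusted p = 1.0) in WENR-plus. The 0 counts of Slc30a10 in proximal against 10 and 13 in distal organoids in WENR-minus gave a level at least 5.07-fold lower. Its call here (adjusted p = 0.0371) uses the low counts on which it was chosen, so it is a description. Leaving out any 1 of these libraries ended the call. In WENR-plus the order was the opposite, with 12 and 9 proximal counts against 0 distal ones, at least 3.54-fold higher (adjusted p = 0.0862, or 0.0223 with the replicate block). Slc39a8 was at 0.50 ± 0.36 (adjusted p = 0.269) and -0.18 ± 0.33 (adjusted p = 0.713), and its WENR-minus value was 1.25 (adjusted p = 0.0206), a call, without distal replicate 1 and -0.03 without distal replicate 2.

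Transcript models within the genes were compared between media over pairs of libraries from the same culture. Slc30a10, Slc30a1, Slc30a4, Mt1 and Mt2 had at least 96.2% of their counts on 1 model, and 4 importers had 2 or more models with at least 5% of the counts. The share on the main model did not pass the test in any of these 4. For Slc39a4 it was 50.8% in WENR-minus and 51.1% in WENR-plus (8 pairs, two-sided exact sign-flip permutation p = 0.922, adjusted p = 0.922). For Slc39a5 it was 84.8% and 82.8% (6 pairs, exact p = 0.438, adjusted p = 0.875), and for Slc39a8 49.6% and 48.5% (8 pairs, exact p = 0.922, adjusted p = 0.922). For Slc39a14 it was 84.3% and 86.7% (8 pairs, exact p = 0.109, adjusted p = 0.438). The smallest p that 8 pairs allow is 0.00781.

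Slc39a14 has alternative forms of exon 5, of 170 bases each, and they give the importer different stretches of protein. The upstream one (chr14:70315664-70315833) is in model 201 and the downstream one (chr14:70313601-70313770) in the main model, 202, which also has a longer last exon. This split was looked at after the values were seen and gets no test. Models 201 and 210 were counted as upstream and set against 202, with all other models left out. The exons of 210 are not given here. Of the TPM of these models, 201 and 210 took 28.6% and 23.7% in proximal controls in WENR-minus, against 13.6% and 6.36% in the WENR-plus libraries. In proximal Cdx2-sgRNA organoids the shares were 19.3% and 27.1% against 8.21% and 13.2%. In distal controls they were 27.0% and 25.6% against 8.39% and 10.5%, and in distal Cdx2-sgRNA organoids 16.1% and 20.3% against 11.7% and 15.1%. The share was thus higher in WENR-minus in each of the 8 cultures, and the media did not overlap in any of the 4 settings. Since the models also differ in their last exon, these estimates do not tell exon 5 from the 3′ end.

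**Figure D4:**
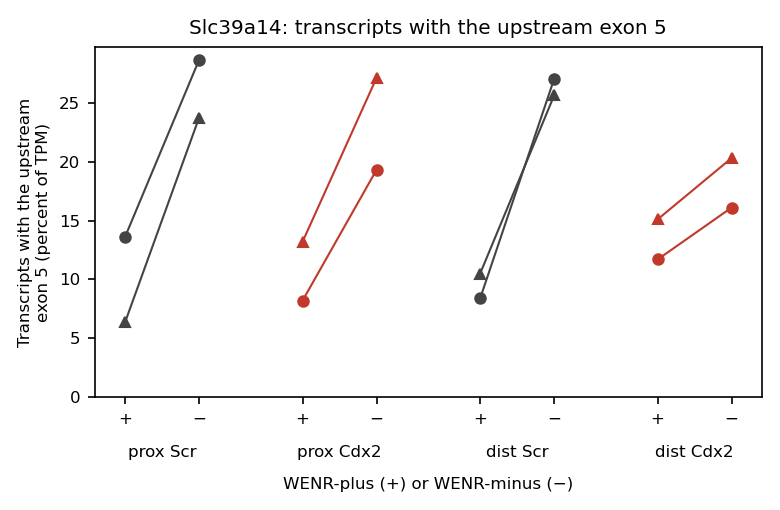
Share of Slc39a14 models 201 and 210, counted as having the upstream form of exon 5, in percent of the TPM of models 201, 210 and 202, in WENR-plus (+) and WENR-minus (−). Each line joins the libraries of 1 culture, circles are replicate 1 and triangles replicate 2, grey is Scramble-sgRNA and red Cdx2-sgRNA. All 8 lines go up, from 6.36 to 15.1% in WENR-plus to 16.1 to 28.6% in WENR-minus.

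The genes whose levels over the 16 libraries were most like those of a member were found by Pearson's correlation of log2(CPM + 0.5), as a description of libraries that share regions, guides and media. For Slc30a10 they were Hsd3b3 (r = 0.96), Acads (0.94), Fkbp5 (0.93), Atpif1 (0.92) and Hsd3b2 (0.91). Slc39a5 was closest to A1cf (0.99) and Cyp2d26 (0.98), Slc39a4 to Dnajb2 (0.98) and Rassf1 (0.96), Slc39a8 to Rbfa (0.96) and Mrpl13 (0.95), and Slc39a14 to Coq9 (0.91) and Ndufs4 (0.90). Slc30a4 was closest to Plpp2 (0.98) and Serpinb6a (0.98) and Slc30a1 to Ergic3 (0.97) and Slc3a1 (0.97). The metallothioneins had the lowest values, with Mt2 (0.77) and Pdss2 (0.76) for Mt1 and Ubl4a (0.85) and Tor2a (0.84) for Mt2.

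The other genes of zinc, manganese, iron and copper handling on the lists, 38 of which were tested, give the setting for the members. With Cdx2-sgRNA, 4 were called higher and 5 lower in proximal WENR-minus, 3 and 3 in proximal WENR-plus, 2 and 1 in distal WENR-minus and 0 and 0 in distal WENR-plus. These are 23.7%, 15.8%, 7.89% and 0% of the 38, near the 21.2%, 15.9%, 5.25% and 0.262% of all genes called. Their median log2 differences were -0.49, -0.077, -0.14 and 0.023. Heph, the ferroxidase that works with the iron exporter, had 1.68 ± 0.138 CPM (SD, n = 2) in proximal Cdx2-sgRNA organoids in WENR-minus against 246 ± 12.5 in the controls (-7.19 ± 0.19, adjusted p = 1.84e-09). Steap4, a metalloreductase, was at 0.62 ± 0.278 against 31.5 ± 30.8 CPM in the same setting (-5.70 ± 1.25, adjusted p = 0.00547). The copper transporter gene Atp7b was higher there, at 7.84 ± 4.47 against 0.396 ± 0.472 CPM (4.23 ± 0.84, adjusted p = 0.00322).

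On withdrawal of the niche factors, 11 of these 38 genes were called higher and 4 lower in distal Scramble-sgRNA organoids, 9 and 3 in distal Cdx2-sgRNA organoids, 4 and 2 in proximal Scramble-sgRNA organoids, and 0 and 1 in proximal Cdx2-sgRNA organoids. The called shares were 39.5%, 31.6%, 15.8% and 2.63%, beside 26.4%, 33.1%, 17% and 6.4% of all genes. Of the 9 other Slc39 genes tested, 4 were called lower and 1 higher in distal controls, and 3 and 1 in distal Cdx2-sgRNA organoids. Among those that went the way of Slc39a8, Slc39a10 fell from 50.1 ± 9.2 to 12.1 ± 0.915 CPM (SD, n = 2) in distal controls (-2.05 ± 0.19, adjusted p = 3.97e-05) and from 42.6 ± 3.3 to 7.62 ± 1.91 in distal Cdx2-sgRNA organoids (-2.48 ± 0.20, adjusted p = 6.9e-06). Steap4 rose in the same settings, by 3.81 ± 0.98 (adjusted p = 0.00926) and 3.86 ± 0.99 (adjusted p = 0.00739). Between the regions with Cdx2-sgRNA in WENR-minus, 3 genes were higher in proximal organoids and 8 were lower by the call rule, with Heph at 1.68 ± 0.138 against 664 ± 4.47 CPM (-8.62 ± 0.20, adjusted p = 8.41e-10), Steap4 at -8.51 ± 1.33 (adjusted p = 0.000369) and Slc39a10 at 1.88 ± 0.20 (adjusted p = 2.64e-05). In WENR-plus 1 was called higher and 4 lower. In the Scramble-sgRNA organoids 1 was called higher and 5 lower in proximal WENR-minus, and 0 and 1 in WENR-plus. The called shares between regions were 28.9% and 13.2% with Cdx2-sgRNA and 15.8% and 2.63% with Scramble-sgRNA in WENR-minus and WENR-plus, beside 34.6%, 17%, 6.08% and 1.75% of all genes. The effect of the guide differed between the regions for Heph in WENR-minus (-7.68 ± 0.23, adjusted p = 1.04e-08) and in WENR-plus (-5.60 ± 0.21, adjusted p = 1.39e-07).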

How the data were processed

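RNA was sequenced from 16 stranded total RNA libraries of mouse colon organoids. The authors quantified reads with Salmon 1.1.0, per the labels and the study's methods. The submitters' processing notes name mm10 and DESeq2 1.32, and the study's supplement names another version of DESeq2, whose results were not used here. The deposited tables give, for each of 140748 transcripts, an estimated count (NumReads) and a TPM value, both not otherwise normalized. Transcripts were matched to genes by GENCODE vM21 identifiers (139864 matched, and the rest held at most 0.509% of counts), and both units were summed over the transcripts of a gene. Total counts per library were 12465194 to 18922143, of which mitochondrial ribosomal RNA took 15.5 to 28%, so a gene with a handful of counts carries large counting error.

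Estimated counts were rounded and fitted for all genes with edgeR 4.0.16 (quasi-likelihood test, filterByExpr, TMM, 1 coefficient per group, 8 residual degrees of freedom), which tested 15289 genes. P-values were adjusted by Benjamini-Hochberg over all of them. The TMM factors that correct for composition differed between groups. They were 0.7001 and 0.6556 in distal and 1.084 and 1.127 in proximal Cdx2-sgRNA organoids in WENR-minus, and reached 1.314 in proximal Scramble-sgRNA WENR-plus. TPM lacks this factor, and the part of the factor in the differences between groups was not tested. Calls needed both an adjusted p below 0.05 and a log2 fold change over 1 in size. There were 17 contrasts: the guide, the medium and the region in 4 settings each, and 5 differences between effects. Values after ± are standard errors for log2 differences. Groups with at most 3 counts in each library were given no fitted fold change. The fit was tested on simulated data. Members and gene lists were chosen with earlier results of these data known. Named genes were the members and, of the other metal genes, the 2 highest and 2 lowest called differences in each family of contrasts among those whose higher group reached 5 CPM, of which 1 gene is not reported here. The genes most like a member were taken from protein-coding genes with a mean of at least 5 CPM. The number of a replicate paired the media of a culture, since deviations from the group means correlated at 0.339 to 0.629 in those 4 pairs of groups, against -0.077 to 0.241 between other groups. The labels do not say which mouse a replicate number stands for. Alternatives were other size factors, DESeq2 1.42.0, other filters on low counts, length-scaled counts, leaving out mitochondrial ribosomal RNA, fitting only the libraries compared, a replicate block, and leaving out each library in turn. The replicate block fits 1 shift shared by all groups. It therefore assumes a pairing of regions and guides that the low correlations between those groups do not show. A block for each culture was added after the data had been seen.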

Additional observations from a re-analysis of the deposited data

Results flagged for a closer look

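A test of the difference between effects was passed by 5 members in 7 comparisons, 6 of them called and the other short of the fold threshold, each with the more negative value in proximal Cdx2-sgRNA organoids. Of all genes, 14.3% were called for the guide between regions in WENR-minus, 4.98% in WENR-plus and 3.6% for withdrawal between guides in proximal organoids, with 9.08%, 3.76% and 1.93% on that side.

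Slc39a5 was lower with Cdx2-sgRNA by a ratio of counts of 517 in proximal organoids in WENR-minus (95% exact counting interval 143 to 4280), while the distal log2 difference was -0.57 ± 0.40 (adjusted p of the difference between regions = 8.86e-05). In WENR-plus the proximal ratio was 86 (33.3 to 317) and the distal log2 difference -0.53 ± 0.41 (adjusted p = 0.0015). Slc39a4 differed between regions in its response to the guide in WENR-minus by -1.46 ± 0.34 (adjusted p = 0.0134), Slc30a1 by -1.03 ± 0.29 (adjusted p = 0.0311) and Slc30a4 by -0.99 ± 0.26 (adjusted p = 0.0251). In TPM, without the composition factor of CPM, mean Slc39a4 in WENR-minus was 116 and 112 with Scramble-sgRNA and Cdx2-sgRNA in proximal organoids. In distal organoids it was 84.2 and 159. In the same order Slc30a1 was at 11.8, 4.93, 18.9 and 13.2, and Slc30a4 at 65, 39.2, 49 and 46.1. On withdrawal of the niche factors in proximal organoids, Cdx2-sgRNA and Scramble-sgRNA differed by -1.84 ± 0.36 for Slc39a14 (adjusted p = 0.0241) and by -1.19 ± 0.29 for Slc30a1 (adjusted p = 0.0437). Both Slc39a5 calls held without any 1 library, while each of the other 4 calls was lost without at least 3 different single libraries, as given in the report. The adjusted p of Slc30a4 rose to as much as 0.0852, without proximal Scramble-sgRNA replicate 1. Goblet and colonocyte markers stood at 51.4 to 54.6 and 524 to 1590 CPM in proximal Cdx2-sgRNA organoids in WENR-minus, below the other WENR-minus groups, and their part in these differences was not tested. No group had enough libraries for a search for outlying samples.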

How the results depend on the processing

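Of the 42 called member results, which include those of Slc30a10 between Cdx2-sgRNA groups, 23 kept their call under all alternatives that could be fitted, 19 lost it under at least 1 and none changed direction. The number of calls for the guide was 9 and stayed between 7 and 9 when 1 library was left out. It was 20 for the medium (18 to 20), 7 for the region (5 to 9) and 6 for differences between effects (2 to 8, with 2 without proximal Scramble-sgRNA replicate 1 or proximal Cdx2-sgRNA replicate 2 in WENR-minus). With at least 10 counts in every library, Slc30a10 and Slc39a5 were not tested, and there were 13 calls for the medium and 4 for the region. Differences between effects were the most variable count, with 15 without a filter on low counts, 11 with DESeq2, 10 with a block for each culture (6 in the withdrawal comparisons that this block can fit, with the 4 for the guide between regions carried over) and 3 with only the libraries compared, where the cause was not tested. DESeq2 called 17.2% and 8.07% of all genes for the guide between regions in WENR-minus and WENR-plus, against 14.3% and 4.98% with edgeR. For withdrawal between guides it called 7.63% in proximal and 0.785% in distal organoids, against 3.6% and 0%. A block for each culture called 10.4% and 0.314% there. The shares of all genes for the other fits are not given here. With the replicate block there were 9, 22, 9 and 7 calls in these families. The block added the calls given in the report and changed no other call of a member.

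Signs changed only for values that were not called. With length-scaled counts these were Slc30a1 for the guide between regions in WENR-plus (0.11) and Mt2 for the region in Cdx2-sgRNA WENR-plus (-0.01). With the replicate block Mt2 for the region became -0.09 in control WENR-minus and -0.05 in Cdx2-sgRNA WENR-plus. Shares of TPM in place of counts gave differences between media of 0.295 percentage points for the main model of Slc39a4 and -0.872 for that of Slc39a5. When 1 library was left out, these values passed 0, none of them called with all libraries, although Slc39a5 (1.59) and Slc39a8 (1.25) were called between regions at the upper end: Slc30a1 for the medium in proximal Cdx2-sgRNA organoids (-0.37 to 0.20), for the region in Cdx2-sgRNA WENR-plus (-0.09 to 0.47) and for the guide between regions in WENR-plus (-0.39 to 0.17), Slc39a4 for the region in control WENR-minus (-0.19 to 0.47) and for the guide between regions in WENR-plus (-0.11 to 0.44), Slc39a5 for the guide in distal WENR-plus (-1.11 to 0.59) and for the region in control WENR-plus (-0.11 to 1.59), and Slc39a8 for the region with Cdx2-sgRNA in WENR-minus (-0.03 to 1.25) and WENR-plus (-0.46 to 0.04). Mt2 did so for the guide in distal WENR-minus (-1.46 to 0.74) and for the region in control WENR-minus (-1.22 to 1.67) and Cdx2-sgRNA WENR-plus (-0.94 to 0.56). The change in the share on the main model spanned -3.95 to 3.45 percentage points for Slc39a4, -3.62 to 7.57 for Slc39a5 and -15.6 to 17.8 for Slc39a8 when 1 replicate number was left out.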
